A study of Mus musculus with 25 samples.

Results

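RNA of mouse embryonic stem cells (mESCs) that lack Dot1L was compared with RNA of wild-type (WT) mESCs across all genes, in 2 Dot1L knockout (KO) and 3 WT libraries, which are 5 of the 25 libraries of the series. The members are all genes of the deposited RNA table: 35731 genes, of which 28234 lie on an autosome and 17829 of these had enough counts to be tested. The results below describe the functional classes among the changed autosomal genes, in 78 classes of genes with at least 5 tested members. The series also holds ChIP libraries of dimethylated and trimethylated H3K79 (H3K79me2 and H3K79me3) in the same line, and RNA of 8-cell embryos treated with a Dot1L inhibitor or its solvent. Both groups compared here were v6.5 mESCs with no treatment, a line made from hybrid mice of the C57BL/6 and 129 strains, and they differed by genotype, wild type against Dot1L KO. The deleted part of Dot1l, the number of KO clones, the culture medium, the use of feeder cells and whether libraries of a group came from separate cultures are not given in the sources used here, so p-values measure the spread between these libraries, which may be technical.

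Dot1L is the enzyme that adds methyl groups to lysine 79 of histone H3, a residue on the face of the nucleosome rather than on the histone tail. The mark lies over the transcribed part of active genes, and Dot1L reaches it in a complex with proteins such as AF10 (Mllt10), AF9 (Mllt3) and ENL (Mllt1) that bind the elongating transcription machinery. In mESCs, Dot1L is known for a part in growth, cell cycle and differentiation, and in blood cells for its recruitment by MLL fusion proteins in leukaemia.

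The libraries held 26860527 to 33755064 estimated counts. Levels are given as CPM, in the order WT1, WT2, WT3 and KO1, KO2. CPM are the counts of a gene scaled to the library total after that total was adjusted by TMM, the scaling used for the tests. They therefore differ from counts scaled to the unadjusted library total. Dot1l itself (ENSMUSG00000061589, chromosome 10) stood at 104, 96.9 and 99.2 CPM in WT and 81.4 and 71.5 CPM in KO, a log2 fold change of −0.39 (SE 0.06, adjusted p 0.00016). Its groups did not overlap, and the RNA that remained cannot be assigned to exons from counts per gene. Markers of mESC identity summed to 6240 to 6290 CPM in WT and 5380 and 5590 CPM in KO. Of 15 tested, 9 were lower and 3 higher, with a median of −0.19, and Fut4 alone averaged less than 1 CPM in WT. Pou5f1, the core factor, stood at 693, 683 and 679 CPM in WT and 586 and 598 CPM in KO. Fibroblast markers, which feeder cells would bring, were present: 13 of 24 tested were higher in KO, the other 11 did not pass, and their summed level was 448 to 548 CPM in WT, 743 CPM in KO1 and 611 CPM in KO2. Dcn, a defining fibroblast marker, stood at 1.23, 1.45 and 1.11 CPM in WT and 1.47 and 0.878 CPM in KO, and Lum was not tested for lack of counts. The 12 tested markers of blood and immune cells summed to 35.0 to 38.7 CPM in all libraries, with adjusted p-values from 0.051 to 0.97. Chromosomes differed in their medians: genes tested and averaging 1 CPM or more had median log2 fold changes from −0.06 on chromosome 13 to 0.04 on chromosome 15 over the autosomes, against −0.66 on X, where 71.0% of 597 genes were called lower. On Y, 80.0% of 10 such genes were called lower, with Zfy1 at a log2 fold change of −2.55 and Uty at −1.01, while Kdm5d and Eif2s3y changed by −0.17 and −0.16. Classes were therefore counted on autosomal genes alone.

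Of the 17829 autosomal genes tested, 7831 (43.9%) were called at an adjusted p under 0.05, of which 4237 (23.8% of those tested) were higher and 3594 (20.2%) were lower in KO. These 3 shares are the background against which each class below is read. KO and WT libraries did not overlap in 11226 of the autosomal genes tested (63.0%). Genes named as the largest changes of a class were chosen among these, so their lack of overlap is no further result. Most changes were small: the median size among called genes was 0.41 on the log2 scale, and 857 genes rose and 387 fell by at least 1. The split by direction depended on the scaling of the libraries. Higher genes were 54.1% of the calls with TMM scaling and 67.5% with upper-quartile scaling, which called 5367 higher and 2590 lower and moved the median of all autosomal genes from 0.02 to 0.08. Directions below are relative to TMM scaling.

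The direction of change went with how highly a gene was expressed. Protein-coding autosomal genes that averaged 1 CPM or more were split into 5 quintiles by their mean over the libraries. In quintile 1, the lowest (median 2.16 CPM), 27.3% were called higher and 6.74% lower. In quintile 5, the highest (median 142 CPM), 14.4% were called higher and 42.1% lower. The median log2 fold change was 0.17 in quintile 1 and −0.08 in quintile 5, and 3.82% and 95.5% of their genes had H3K79me2 in both WT peak lists. Quintiles of gene length differed less, with medians from −0.02 to 0.03. A class of weakly expressed genes thus starts from another background than a class of strongly expressed genes, and the quintile of the median member is given with many of the classes. That median is taken over the protein-coding members that averaged 1 CPM or more, so members below this level do not enter it.

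**Figure D1:**
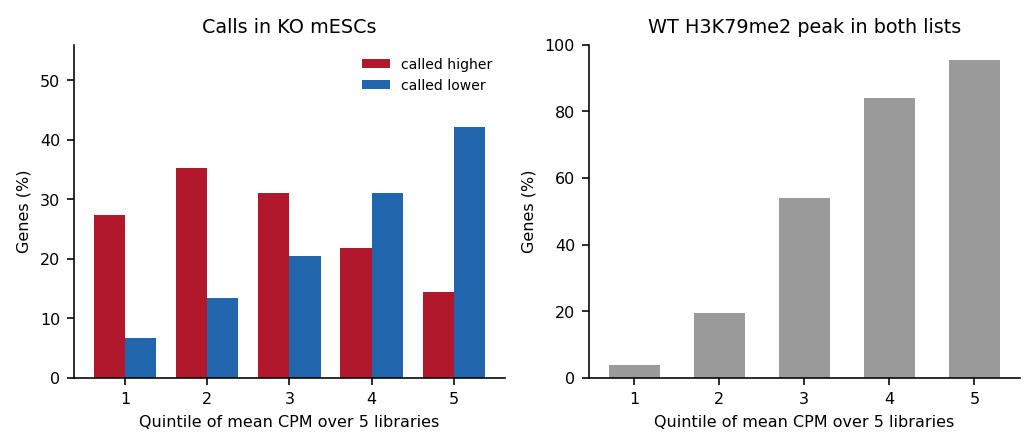
Share of protein-coding autosomal genes called higher or lower in KO (left, %) and share with a WT H3K79me2 peak in both lists (right, %), by quintile of mean CPM over the 5 libraries, from 1 (lowest) to 5 (highest). The share called higher peaked in quintile 2 at 35.3% and the share called lower reached 42.1% in quintile 5, in which 95.5% of genes carried the mark.

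**Figure D2:**
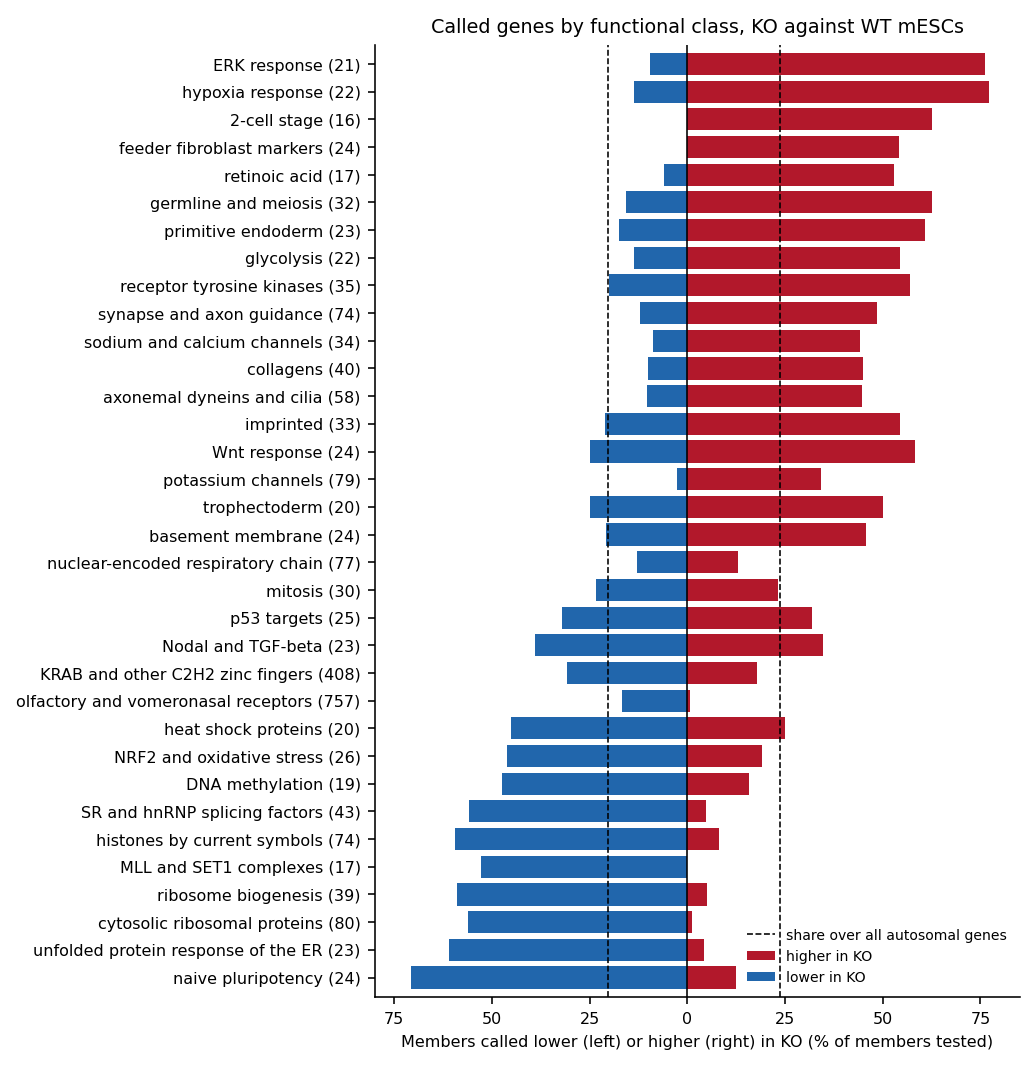
Members called lower (left) or higher (right) in KO as a percentage of the members tested (number in brackets), for 34 of the 78 classes, ordered by the difference between both shares. Dashed lines mark the shares over all autosomal genes, 20.2% lower and 23.8% higher; hypoxia and ERK response genes reached 77.3% and 76.2% higher, and naive pluripotency genes 70.8% lower.

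Most genes of the hypoxia response rose. Cells short of oxygen stabilise the factor HIF, which switches on genes for glucose uptake, glycolysis, blood vessel growth and its own degradation. Of 22 tested members, 17 were higher, 3 were lower and 2 did not pass, with a median log2 fold change of 0.49 against 0.02 over all autosomal genes. The median member lay in quintile 4 of expression, in which 21.8% of genes were higher. The promoters of the 3 members with the largest rise are shown because each holds the core of the HIF binding motif, ACGTG or GCGTG. They are the 250 bases before the first listed start site in RefSeq (GRCm38.p6), written 5′ to 3′ on the strand of the gene, with each match on either strand in capitals (a match on the other strand reads CACGT or CACGC).
Adm: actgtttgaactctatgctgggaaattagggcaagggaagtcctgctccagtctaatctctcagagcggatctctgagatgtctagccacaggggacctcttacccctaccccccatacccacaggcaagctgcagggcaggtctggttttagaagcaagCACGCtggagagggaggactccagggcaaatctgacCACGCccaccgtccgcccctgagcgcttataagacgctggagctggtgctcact
Ankrd37: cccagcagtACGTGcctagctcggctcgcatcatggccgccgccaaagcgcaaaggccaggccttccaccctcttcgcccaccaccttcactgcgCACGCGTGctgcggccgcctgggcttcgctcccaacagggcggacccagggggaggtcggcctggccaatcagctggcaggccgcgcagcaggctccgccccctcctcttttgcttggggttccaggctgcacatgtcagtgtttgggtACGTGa
Egln3: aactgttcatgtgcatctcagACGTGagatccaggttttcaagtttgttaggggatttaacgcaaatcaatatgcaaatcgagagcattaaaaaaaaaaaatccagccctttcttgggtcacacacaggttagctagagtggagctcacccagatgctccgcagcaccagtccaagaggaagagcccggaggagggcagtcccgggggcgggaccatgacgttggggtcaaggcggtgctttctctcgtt
Adm lies at chr7:110627407-110627656 (+), Ankrd37 at chr8:45999851-46000100 (−) and Egln3 at chr12:54203875-54204124 (−). A core was found in the promoters of 13 of the 14 higher members with a listed promoter (92.9%), of 17 of 19 members in all (89.5%) and of 50.9% of the 12997 autosomal genes that were tested and had one. The search covered 4 motifs (this core, the E-box CACGTG, the E2F motif GGCGGGA and the CArG box) on both strands in 6 classes. In the other 5 classes the core was found in 65.2 to 77.8% of promoters, with 75.0% in the unfolded protein response class, of which 1 member rose. Among higher members alone, it was found in 15 of 17 germline and meiosis promoters (88.2%) and 7 of 9 ERK response promoters (77.8%). The same share was 8 of 11 for glycolysis (72.7%) and 5 of 10 for actin cytoskeleton and SRF targets (50.0%). A match describes the sequence and not binding.

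Adm, which encodes the vessel-dilating peptide adrenomedullin (ENSMUSG00000030790), stood at 3.04, 3.44 and 2.72 CPM in WT and 12.9 and 9.43 CPM in KO, a log2 fold change of 1.85 (SE 0.15, adjusted p 6e-07). Ankrd37, a HIF target of little-known function (ENSMUSG00000050914), stood at 12.0, 12.2 and 11.5 CPM in WT and 42.8 and 39.4 CPM in KO, a change of 1.79 (SE 0.06, adjusted p 6.3e-10). Egln3, a prolyl hydroxylase that marks HIF for degradation (ENSMUSG00000035105), stood at 37.1, 38.5 and 33.8 CPM in WT and 123 and 105 CPM in KO, a change of 1.64 (SE 0.07, adjusted p 2.3e-09). In these 3 genes both KO libraries lay above every WT library, and KO1 was higher than KO2 in each. Egln1, the main HIF hydroxylase, rose by 0.74 (SE 0.08), and Car9, a carbonic anhydrase of the cell surface, by 1.39 (SE 0.20) at a level of 1.09, 1.17 and 1.6 CPM in WT and 3.62 and 3.12 CPM in KO. P4ha2 and P4ha1, which hydroxylate proline in collagen, rose by 1.03 and 0.60. Pdk1, the kinase that keeps pyruvate out of the mitochondrion, rose by 0.82, with 173, 164 and 155 CPM in WT and 294 and 285 CPM in KO. Changes were 0.50 for Bnip3 and 0.39 for Bnip3l, which act in the removal of mitochondria, and 0.32 for Vegfa, the growth factor of blood vessels. The factor itself went the other way: Hif1a stood at 199, 200.0 and 194 CPM in WT and 151 and 157 CPM in KO, a log2 fold change of −0.36 (SE 0.04, adjusted p 1.4e-05). The histone demethylase Kdm3a fell by 0.27 and Ldha by 0.14, while Mxi1 (0.15) and Pfkfb4 (0.28) did not pass.

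Part of glycolysis rose as well. Of 22 tested members, 12 were higher and 3 lower, with a median of 0.21, and the median member lay in quintile 5, in which 14.4% of genes were higher. Slc2a1, the main glucose transporter, stood at 602, 569 and 568 CPM in WT and 901 and 797 CPM in KO, a change of 0.55 (SE 0.05, adjusted p 1.5e-06). The transporter Slc2a3 rose by 0.35, the hexokinases Hk1 and Hk2 by 0.67 and 0.48, the isomerase Gpi1 by 0.65, and the phosphofructokinases Pfkm, Pfkl and Pfkp by 0.73, 0.27 and 0.23. Aldoc and Eno2, isoforms typical of neurons, rose by 1.42 and 1.18 from low levels, Aldoc from 10.7 to 11.4 CPM in WT to 34.8 and 25.1 CPM in KO. Several abundant enzymes did not pass: Gapdh (−0.02), Pkm (0.04), Aldoa (0.04) and Eno1 (−0.05). Of the lactate pathway, Ldha and the lactate exporter Slc16a1 fell by 0.14 and 0.23, and Slc16a3 (0.00) did not pass. Slc2a1, Slc2a3, Hk2, Pfkfb3 and Ldha are members of both lists. In the mitochondrial steps that follow, of 21 tested genes of the tricarboxylic acid cycle, 4 were higher and 4 lower, with a median of 0.03, and of 77 nuclear genes of the respiratory chain, 10 were higher and 10 lower, with a median of −0.00 (26 higher and 5 lower with upper-quartile scaling).

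Genes that respond to the ERK kinase formed the class with the next largest share of higher genes. ERK is the last kinase of the pathway downstream of fibroblast growth factor (FGF), its activity drives mESCs out of the naive state, and its response genes include fast transcription factors and the phosphatases and inhibitors that switch the pathway off. Of 21 tested members, 16 were higher, 2 lower and 3 did not pass, with a median of 0.69, and 17 of 21 carried H3K79me2 in WT. The median member lay in quintile 4 (21.8% higher). Ier3, an early response gene (ENSMUSG00000003541, chromosome 17), stood at 17.7, 16.8 and 17.1 CPM in WT and 62.4 and 50.8 CPM in KO, a log2 fold change of 1.72 (SE 0.08, adjusted p 3.7e-09). Fos, a subunit of the AP-1 factor (ENSMUSG00000021250, chromosome 12), stood at 5.83, 5.04 and 7.17 CPM in WT and 13.6 and 15.0 CPM in KO, a change of 1.26 (SE 0.12, adjusted p 3.4e-06). Spry4, which inhibits receptor signalling (ENSMUSG00000024427), stood at 95.2, 82.8 and 86.1 CPM in WT and 217 and 246 CPM in KO, a change of 1.4 (SE 0.06, adjusted p 2.9e-09). All 3 were higher in both KO libraries than in any WT library. Egr1 and Fosl1, early transcription factors, rose by 1.05 and 1.34, and Myc by 0.93, with KO1 at 24.2 and KO2 at 37.3 CPM against 15.4 to 17.2 CPM in WT. The ERK phosphatases Dusp4, Dusp1 and Dusp6 rose by 1.07, 0.80 and 0.69, while Dusp5 (0.23) did not pass. Among the inhibitors, Spred1 rose by 0.73, Spry2 by 0.25 and Spred2 by 0.18, and Spry1 (−0.08) and Il17rd (0.02) did not pass. The ETS factors diverged: Etv4 rose by 0.94 and Etv1 by 0.21, and Etv5 fell by 0.14. The cell cycle gene Ccnd1 fell by 0.89, from 153 to 169 CPM in WT to 84.5 and 91.5 CPM in KO. Fgf4, the ligand that mESCs make for this pathway and a member of the naive list, fell by 0.65, from 323 to 329 CPM to 211 and 205 CPM.

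Receptor tyrosine kinases, which sit upstream of ERK and other pathways, changed in both directions, with 20 of 35 higher, 7 lower and a median of 0.33. Their median member lay in quintile 3 (31.1% higher). The FGF receptors split by level. Fgfr1, the most abundant, stood at 148, 142 and 146 CPM in WT and 124 and 115 CPM in KO and changed by −0.28 (SE 0.05, adjusted p 0.00035). Fgfr2 stood at 21.6, 20.6 and 19.6 CPM in WT and 5.16 and 5.98 CPM in KO, a change of −1.88 (SE 0.09, adjusted p 6.6e-09). Fgfr3 and Fgfr4 were low in WT (1.46 to 4.13 CPM) and rose by 1.27 and 1.34. Igf1r, the receptor of insulin-like growth factors, rose by 0.65 from 59.2 to 59.5 CPM in WT to 95.0 and 91.6 CPM in KO, and Epha2, an ephrin receptor, rose by 0.57. Erbb3, Tyro3 and Ddr2 fell by 0.82, 0.63 and 0.60. In the LIF and STAT3 pathway, which holds mESCs in self-renewal, 6 of 18 were higher and 4 lower with a median of 0.04. The median member lay in quintile 4 (21.8% higher). The feedback inhibitor of the pathway, Socs3, rose by 1.08, and the receptor subunit Il6st fell by 0.35.

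Genes of the naive pluripotent state fell. Of 24 tested members, 17 were lower, 3 higher and 4 did not pass, with a median of −0.33, and their summed level was 7420 to 7530 CPM in WT and 6340 and 6700 CPM in KO. The median member lay in quintile 5, in which 42.1% of genes were lower. Fbxo15 (ENSMUSG00000034391), a long-used reporter locus of pluripotent cells, stood at 205, 211 and 206 CPM in WT and 78.6 and 85.3 CPM in KO, a log2 fold change of −1.34 (SE 0.05, adjusted p 6.2e-10). Gdf3, a ligand of the TGF-beta family (ENSMUSG00000030117, chromosome 6), stood at 63.3, 64.2 and 66.2 CPM in WT and 23.5 and 28.0 CPM in KO, a change of −1.33 (SE 0.07, adjusted p 8.4e-09). Prdm14, a repressor that guards the naive state (ENSMUSG00000042414, chromosome 1), stood at 31.6, 26.6 and 29.1 CPM in WT and 14 and 14.6 CPM in KO, a change of −1.02 (SE 0.08, adjusted p 4.2e-07). In all 3 the KO libraries lay below every WT library. Tcl1 fell by 0.97, Klf5 by 0.51, Dppa2 by 0.44, Nr5a2 by 0.42 and Dppa5a by 0.30, and Nanog, the largest fall among the core factors, is part of the same list with a change of −1.02. The fall was not general: Klf4 (0.03), Esrrb (−0.07), Sox2 (−0.06) and Dppa4 (−0.02) did not pass, and Tfcp2l1, Tdgf1 and Utf1 rose by 0.46, 0.32 and 0.27. Genes of the primed state, which follows the naive one, split with 5 of 14 higher and 6 lower. Dnmt3a, a DNA methyltransferase, rose by 0.59, and the ectoderm factors Zic2 and Zic5 fell by 0.91 and 0.78.

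The Nodal pathway showed its largest changes in its targets. Nodal signals through activin receptors and SMAD factors, and it turns on its own inhibitors, the Lefty proteins. Of 23 tested members of Nodal and TGF-beta signalling, 8 were higher and 9 lower, and the median was −0.05, with the median member in quintile 4 (31.1% lower). Lefty2 (ENSMUSG00000066652, chromosome 1) stood at 415, 394 and 388 CPM in WT and 114 and 123 CPM in KO, a log2 fold change of −1.75 (SE 0.05, adjusted p 8.5e-11). Lefty1 (ENSMUSG00000038793) stood at 168, 162 and 158 CPM in WT and 52.6 and 55.5 CPM in KO, a change of −1.59 (SE 0.05, adjusted p 1.9e-10). The KO libraries lay below every WT library in both genes. Nodal itself fell by 0.44, the receptors Acvr2a and Tgfbr1 by 0.35 and 0.28, Smad3 by 0.33 and the SMAD partner Foxh1 by 0.35. Tdgf1, the Nodal co-receptor, and Acvr1b rose by 0.32 and 0.35, Smad2 by 0.15, and the ligands Tgfb1 and Tgfb2 by 0.66 and 1.02. Smad4 (0.06), Smad7 (−0.05), Inhba (−0.10) and Inhbb (0.04) did not pass.

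Wnt response genes were mostly higher, with the inhibitors divided. Wnt signals through beta-catenin and the TCF factors, and its targets include both factors and secreted or membrane inhibitors. Of 24 tested members, 14 were higher and 6 lower, with a median of 0.45 in a class whose median member lay in quintile 3 (31.1% higher). Cdx1, a homeobox target (ENSMUSG00000024619), stood at 0.87, 0.922 and 1.18 CPM in WT and 5.72 and 6.05 CPM in KO, a log2 fold change of 2.57 (SE 0.17, adjusted p 1.2e-07). Rnf43, a ligase that removes Wnt receptors (ENSMUSG00000034177, chromosome 11), stood at 1.41, 1.01 and 1.39 CPM in WT and 5.41 and 3.48 CPM in KO, a change of 1.80 (SE 0.22, adjusted p 3.2e-05). Notum, an enzyme that inactivates Wnt ligands (ENSMUSG00000042988, chromosome 11), stood at 26.8, 24.0 and 24.1 CPM in WT and 5.65 and 7.57 CPM in KO, a change of −1.91 (SE 0.11, adjusted p 2.2e-08). Cdx1 and Rnf43 were higher and Notum lower in both KO libraries than in any WT library. The general target Axin2 rose by 0.65, T by 0.99, Lef1 by 0.43 and Tcf7 by 0.33. The repressor Tcf7l1 fell by 0.92, from 59.0 to 69.2 CPM in WT to 31.0 and 36.6 CPM in KO, and Tcf7l2 by 0.30, the receptor Lgr4 by 0.33 and the ligase Znrf3 by 0.27. Ctnnb1, which encodes beta-catenin, was at 577, 563 and 567 CPM in WT and 533 and 539 CPM in KO, a change of −0.09 that did not pass.

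Retinoic acid genes followed, with 9 of 17 higher (6 in DESeq2), 1 lower and a median of 0.53. Their median member lay in quintile 2, in which 35.3% of genes were higher. Crabp1, which binds retinoic acid in the cytoplasm, stood at 8.3, 9.66 and 9.85 CPM in WT and 27.7 and 25.1 CPM in KO, a change of 1.51 (SE 0.08, adjusted p 2.1e-08). Stra8, a retinoic acid target and the starter of meiosis (ENSMUSG00000029848, chromosome 6), stood at 7.54, 6.95 and 6.65 CPM in WT and 19.8 and 18.6 CPM in KO, a change of 1.45 (SE 0.08, adjusted p 3e-08). Neither gene overlapped between the groups. The receptors Rara and Rarg rose by 0.56 and 0.39 and the partner Rxra fell by 0.74, while the enzymes that make retinoic acid, Aldh1a2 (−0.04) and Aldh1a3 (0.08), did not pass. In the BMP class, 7 of 19 were higher (36.8%) and 3 lower, near the 35.3% higher of quintile 2, in which its median member lay. Id1, a target that blocks differentiation factors, had its largest rise, at 1.11. In the Notch class, 8 of 19 were higher (5 in DESeq2) and 3 lower, with the median member in quintile 3 (31.1% higher).

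**Figure D3:**
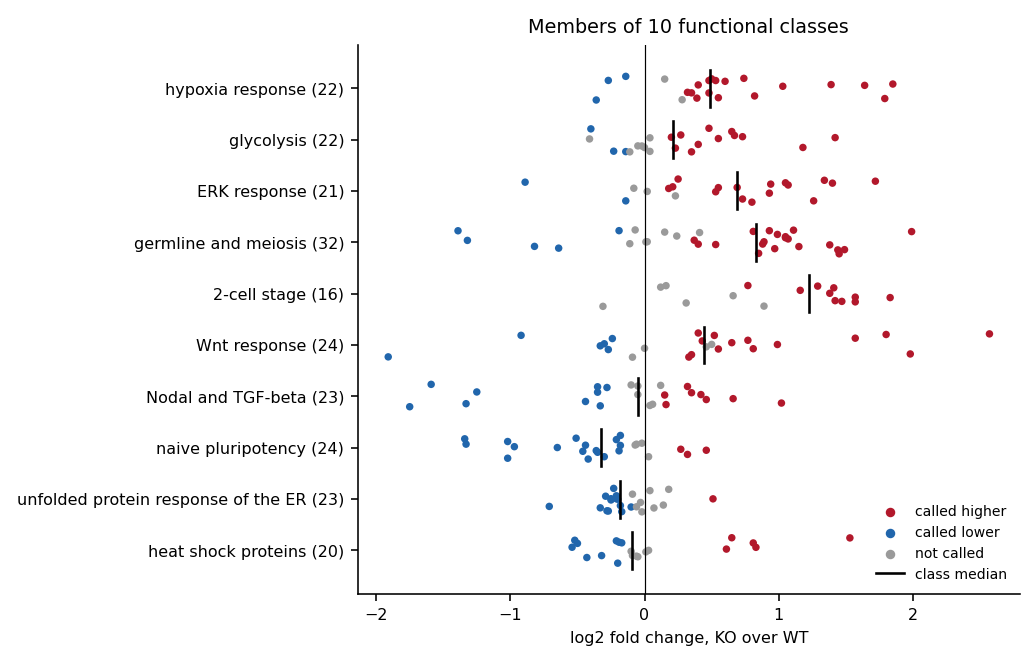
Log2 fold change (KO over WT) of every tested member of 10 classes, with the number of members in brackets; each point is a gene, coloured by call, and the black bar is the class median. Medians lay at 0.49 for the hypoxia response, 0.69 for the ERK response, 0.83 for germline genes and −0.33 for naive pluripotency genes, and Nodal genes spread from −1.75 to 1.02.

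Germline and meiosis genes showed large changes. In most other cells these genes are kept silent by DNA methylation and by repressor complexes, some of which bind E-boxes. Of 32 tested members, 20 were higher, 5 lower and 7 did not pass, with a median of 0.83, and 10 rose by at least 1. The median member lay in quintile 3, in which 31.1% of genes were higher. The promoters of the 3 members with the largest rise among those that hold the palindrome CACGTG are shown, since that E-box was frequent in the list. They follow the same rules as above, with the E-box in capitals.
Brdt: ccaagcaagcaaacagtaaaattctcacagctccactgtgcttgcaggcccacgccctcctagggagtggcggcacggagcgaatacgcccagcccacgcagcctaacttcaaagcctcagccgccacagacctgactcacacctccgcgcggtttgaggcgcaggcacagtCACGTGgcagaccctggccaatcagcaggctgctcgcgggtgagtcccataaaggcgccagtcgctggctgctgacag
Mov10l1: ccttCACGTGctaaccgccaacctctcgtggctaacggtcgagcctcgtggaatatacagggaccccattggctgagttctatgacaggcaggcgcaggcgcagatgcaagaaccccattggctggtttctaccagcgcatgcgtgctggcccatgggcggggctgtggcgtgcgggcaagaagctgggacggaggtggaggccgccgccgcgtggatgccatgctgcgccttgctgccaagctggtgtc
Tdrd1: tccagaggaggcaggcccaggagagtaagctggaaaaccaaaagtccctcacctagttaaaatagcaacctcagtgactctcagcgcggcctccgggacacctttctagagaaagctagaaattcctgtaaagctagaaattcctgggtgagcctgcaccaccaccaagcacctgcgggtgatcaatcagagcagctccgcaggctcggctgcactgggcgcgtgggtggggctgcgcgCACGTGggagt
Brdt lies at chr5:107330944-107331193 (+), Mov10l1 at chr15:88982744-88982993 (+) and Tdrd1 at chr19:56825959-56826208 (+). The E-box was found in the promoters of 10 of 17 higher members with a listed promoter (58.8%), of 13 of 27 members in all (48.1%), of 7.53% of the 12997 promoters and of 7.69 to 15.8% in the other 5 classes searched. Sycp2, Tex101, Stra8 and Tdrd5 rose more than Brdt and are not shown, since each had no such match in this window or no listed promoter. Rec8 and Asz1 rose more than Tdrd1 and are also not shown. A CACGTG also counts as an ACGTG core, so both motifs overlap.

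Sycp2, a protein of the axis that pairs meiotic chromosomes (ENSMUSG00000060445, chromosome 2), stood at 2.25, 2.74 and 3.06 CPM in WT and 10.4 and 11 CPM in KO, a log2 fold change of 1.99 (SE 0.13, adjusted p 7.5e-08). Tdrd5, which acts in the silencing of transposons by piRNAs (ENSMUSG00000060985, chromosome 1), stood at 5.47, 5.53 and 5.78 CPM in WT and 15.4 and 14.9 CPM in KO, a change of 1.44 (SE 0.09, adjusted p 4.2e-08). Tex15, from the same process, was the most abundant member that rose by about 1, at 75.9, 79.9 and 81.4 CPM in WT and 150.0 and 163 CPM in KO, a change of 0.99 (SE 0.05, adjusted p 8.4e-09). The KO libraries were above every WT library in each. Among other genes of the piRNA pathway, Mov10l1 rose by 1.15, Mael and Tdrd1 each by 1.05, Asz1 by 1.07, Ddx4 by 0.97 and Piwil2 by 0.88, while Rnf17 (0.02) and Piwil4 (−0.11) did not pass. Brdt, a bromodomain protein of the testis, rose by 1.38, the meiotic cohesin Rec8 by 1.11 and the axis protein Sycp3 by 0.81. Other meiotic genes fell. Hormad1, an axis protein (ENSMUSG00000028109, chromosome 3), stood at 40.7, 41.0 and 38.4 CPM in WT and 15.0 and 15.4 CPM in KO, a change of −1.39 (SE 0.06, adjusted p 2.5e-09). The meiotic cohesin Smc1b (ENSMUSG00000022432, chromosome 15) stood at 70.0, 76.3 and 71.6 CPM in WT and 32.1 and 26.2 CPM in KO, a change of −1.32 (SE 0.07, adjusted p 2.5e-08). Tex19.1, which protects germ cells from transposons, fell by 0.82, the factor Sohlh2 by 0.64 and the cohesin Stag3 by 0.19. Meiotic genes thus moved in both directions, and H3K79me2 was called over 2 of the 32 members in WT.

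Genes of the 2-cell stage embryo, which a small fraction of mESCs expresses at any time, had a median of 1.23, with 10 of 16 tested members higher and the other 6 not passing. Of the 16, 11 averaged 1 CPM or more, and the median of the protein-coding ones among these lay in quintile 2 (35.3% higher). The list holds 26 genes, and the 10 that were not tested had too few counts or no entry by that symbol. The 6 tested Zscan4 genes on chromosome 7 rose by 1.29 to 1.57. Zscan4f stood at 12.3, 12.5 and 12.7 CPM in WT and 33.0 and 41.0 CPM in KO and Zscan4c at 9.06, 8.18 and 9.12 CPM in WT and 22.7 and 26 CPM in KO, with both KO libraries above every WT library. Zscan4 copies are near-identical, their counts were not whole numbers, and their reads cannot be assigned to single copies with certainty. Duxf3, a copy of the factor that starts this programme, was listed at 0.217, 0.4 and 0.383 CPM in WT and 0.632 and 0.878 CPM in KO, a change of 1.16 (SE 0.37, adjusted p 0.023), which rests on few counts. In bulk RNA, a larger share of cells in this state and more RNA per cell cannot be told apart.

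Primitive endoderm genes, the first extraembryonic lineage after the trophectoderm, were higher in 14 of 23 and lower in 4, with a median of 0.40 and the median member in quintile 2 (35.3% higher). Gata6, which specifies this lineage, stood at 0.471, 0.769 and 0.766 CPM in WT and 4.14 and 3.51 CPM in KO, a log2 fold change of 2.50 (SE 0.22, adjusted p 1.4e-06). Dab2, an endocytic adaptor of this lineage, stood at 3.95, 5.17 and 4.59 CPM in WT and 12.6 and 12.3 CPM in KO, a change of 1.44 (SE 0.11, adjusted p 4e-07). Cubn, the receptor for vitamin B12 complexes in visceral endoderm, had the largest change of the list at 3.16. Both KO libraries were above all WT libraries for these genes, while Hnf4a fell by 1.27 and the laminin Lamc1 by 0.35. In the trophectoderm list, 10 of 20 were higher and 5 lower, with the median member in quintile 2 (35.3% higher). Of this list, Dlx3 rose by 2.04 and Krt19 by 1.07, and Gata3 fell by 1.11, from 8.21 to 8.81 CPM in WT to 3.72 and 4.19 CPM in KO. Mesoderm genes were higher in 7 of 22 (31.8%) and lower in 1, with the median member in quintile 1 (27.3% higher). Summed levels were 244 to 263 CPM for the trophectoderm and 274 to 302 CPM for the mesoderm list over the 5 libraries.

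**Figure D4:**
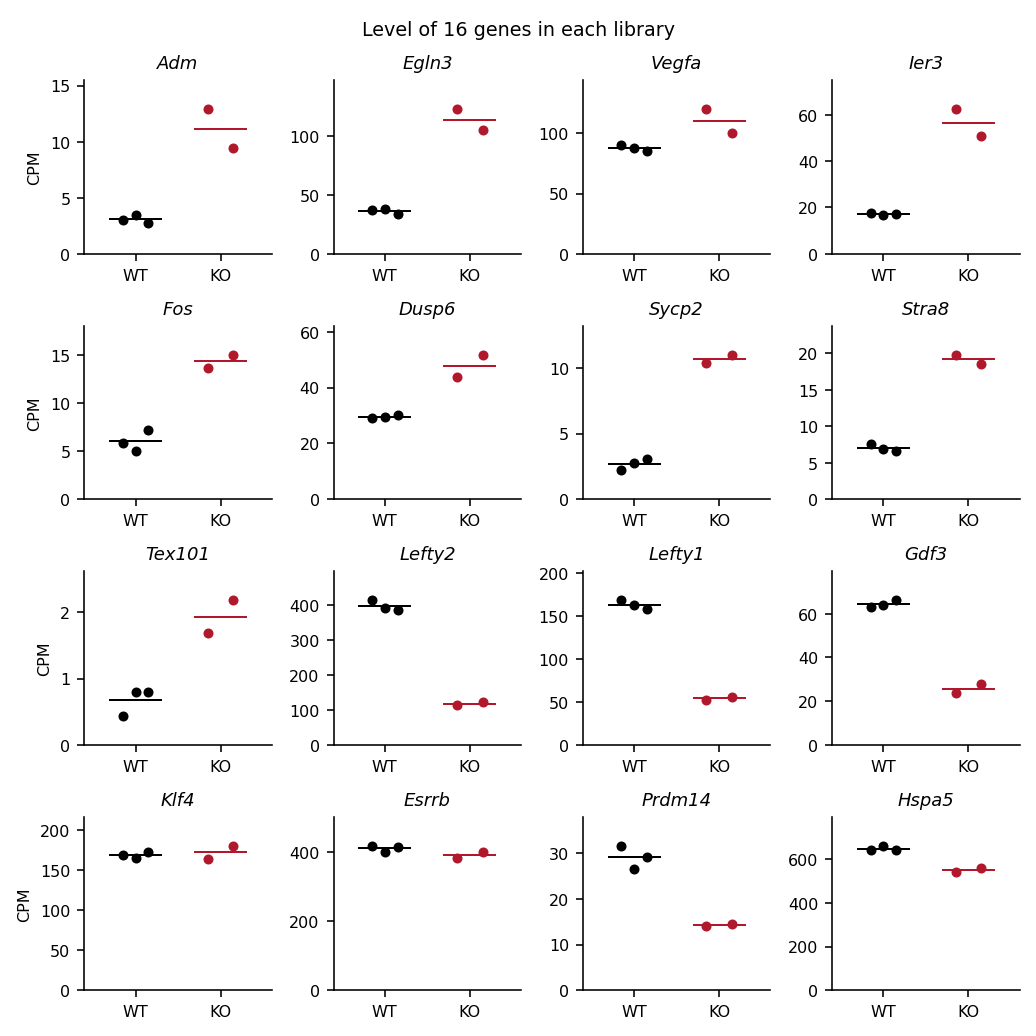
Level (CPM, linear axes from 0) of 16 genes in each WT (black) and KO (red) library; bars are group means. KO libraries lay apart from WT for the hypoxia, ERK, germline and Nodal genes shown and for Prdm14 and Hspa5, and the groups overlapped for Klf4 but not for Esrrb, whose change of −0.07 did not pass.

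Imprinted genes, expressed from 1 parental copy, were higher in 18 of 33 and lower in 7, with a median of 0.20 and the median member in quintile 4 (21.8% higher). Peg10, a gene of retrotransposon origin (ENSMUSG00000092035, chromosome 6), stood at 577, 602 and 579 CPM in WT and 964 and 979 CPM in KO, a log2 fold change of 0.73 (SE 0.04, adjusted p 5.9e-09), and its neighbour Sgce rose by 0.82. Phlda2, which limits growth of the placenta (ENSMUSG00000010760, chromosome 7), stood at 7.79, 8.15 and 7.21 CPM in WT and 18.0 and 18.7 CPM in KO, a change of 1.25 (SE 0.08, adjusted p 9.6e-08), and Ascl2 and Slc22a18 of the same chromosome rose by 0.99 and 1.47. Plagl1 (ENSMUSG00000019817, chromosome 10) stood at 61.0, 61.9 and 63.7 CPM in WT and 29.2 and 31.4 CPM in KO, a change of −1.04 (SE 0.05, adjusted p 9.5e-09). The groups did not overlap in these genes. Impact, Grb10, Sfmbt2 and Rtl1 fell by 0.70, 0.68, 0.61 and 0.59, and Slc38a4 (−0.02), Snrpn (0.07) and Igf2 (0.20) did not pass. Counts per gene do not separate the parental copies.

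Genes for protein folding in the endoplasmic reticulum fell by small steps. The unfolded protein response is the programme that raises chaperones when proteins misfold there, through the sensors Ern1, Eif2ak3 and Atf6 and the factor Xbp1. Of 23 tested members, 14 were lower, 1 higher and 8 did not pass, with a median of −0.18 in a class whose median member lay in quintile 4 (31.1% lower). Xbp1 (ENSMUSG00000020484, chromosome 11) stood at 63.2, 59.4 and 60.8 CPM in WT and 36.1 and 38.7 CPM in KO, a log2 fold change of −0.71 (SE 0.05, adjusted p 3.1e-07). Hspa5, the main chaperone (ENSMUSG00000026864, chromosome 2), stood at 643, 662 and 642 CPM in WT and 542 and 562 CPM in KO, a change of −0.23 (SE 0.04, adjusted p 0.00022). The KO libraries were below every WT library in both. Atf6 fell by 0.29, Herpud1 by 0.27, Pdia4 by 0.25 and Hyou1 by 0.21, the chaperone Sdf2l1 rose by 0.51, and Ern1 (0.18) and Eif2ak3 (0.07) did not pass. Heat shock proteins were lower in 9 of 20 (45.0%) and higher in 5, near the 42.1% lower of quintile 5. Hspa8, the abundant constitutive chaperone, fell by 0.50, from 3140 to 3250 CPM in WT to 2130 and 2380 CPM in KO, while the inducible Hspa1a and Hspa1b, which share sequence, rose by 1.53 and 0.81. Of 26 genes of oxidative stress, in the same quintile, 12 were lower (46.2%) and 5 higher: Me1 fell by 0.65 and Gsr by 0.48, and the metallothionein Mt1 rose by 0.72.

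Some classes of genes for making RNA and protein fell by small steps. Of 80 cytosolic ribosomal protein genes, 45 were lower and 1 higher, with a median of −0.13, and their summed level was 42700 to 44000 CPM in WT and 39500 and 40900 CPM in KO. Their median member lay in quintile 5, in which 42.1% of genes were lower, and 24 were lower with upper-quartile scaling. The largest falls were in Rpl10l and Rpl39l, testis-typical copies, at −1.14 and −0.88. Of 39 ribosome biogenesis genes, 23 were lower and 2 higher, with Nop56 at −0.40 and Gnl3 at −0.35. Of 43 SR and hnRNP splicing factors, 24 were lower and 2 higher: Hnrnph1 (ENSMUSG00000007850, chromosome 11) stood at 498, 522 and 510.0 CPM in WT and 368 and 406 CPM in KO, a log2 fold change of −0.40 (SE 0.05, adjusted p 1.5e-05). In these 3 classes the fall was larger in KO1 than in KO2, with class medians against the WT mean of −0.16 and −0.10 for ribosomal proteins, −0.22 and −0.11 for ribosome biogenesis and −0.20 and −0.09 for splicing factors. Other classes of the same machinery lay nearer to the background. RNA polymerase II and Mediator genes were lower in 15 and higher in 9 of 73, mitochondrial ribosomal proteins lower in 19 and higher in 8 of 78, and elongation factors lower in 10 and higher in 8 of 34, all with the median member in quintile 4 (31.1% lower). Translation initiation factors were lower in 23 and higher in 7 of 61, a share of 37.7% lower in a class of quintile 5. Replication genes were lower in 17 of 39 (8 with upper-quartile scaling), a share of 43.6% beside the 42.1% of quintile 5. Mitosis genes were higher in 7 and lower in 7 of 30 (12 lower without KO2, 11 higher with upper-quartile scaling). Genes of homologous recombination were higher in 6 and lower in 6 of 30 (12 higher with upper-quartile scaling), and p53 targets higher in 8 and lower in 8 of 25 (5 higher without KO1).

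Chromatin regulator classes were read against quintile 5, in which the median member of each lay and 42.1% of genes were lower. The Dot1L complex list had 5 of 7 lower and 1 higher, and the lower members include the knockout target Dot1l itself (−0.39). Aff4, a scaffold of the elongation complex, stood at 684, 693 and 684 CPM in WT and 471 and 504 CPM in KO, a log2 fold change of −0.49 (SE 0.04, adjusted p 5e-07). Mllt10 fell by 0.31 and Mllt3 rose by 0.34. Of 17 genes of the MLL and SET1 complexes, which methylate H3K4, 9 were lower (5 with upper-quartile scaling), led by Setd1b at −0.72. Among DNA methylation genes, 9 of 19 were lower (47.4%, near that share) and 3 higher. Dnmt3b fell by 0.37, from 258 to 261 CPM in WT to 195 and 206 CPM in KO, as Dnmt3a rose. SWI/SNF and CHD remodellers were also near it, lower in 15 of 33 (45.5%), with Smarcad1 at −0.63 and Arid1a at −0.52, and H3K9 methylation genes in 10 of 23 (43.5%, and 5 genes with upper-quartile scaling), with Zfp809, which recruits silencing to retroviruses, at −0.79. Polycomb genes split, with 9 of 31 higher and 8 lower, of which Bmi1 fell by 1.01 and Epop by 0.77. Of 74 histone genes, 44 were lower and 6 higher, with a median of −0.21, and their medians against the WT mean were −0.26 in KO1 and −0.14 in KO2. H1f0, the linker histone of resting cells, rose by 0.76, from 61.2 to 62.6 CPM to 106 and 103 CPM. Counts of 69 of the 74 histone genes were not whole, so part of their reads was shared between copies.

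A group of neighbouring zinc finger genes fell. Of 408 tested Zfp and Zscan genes, 126 were lower and 73 higher (110 higher with upper-quartile scaling), and the median was −0.04 with TMM and 0.03 with upper-quartile scaling. All 15 tested Zfp genes between positions 145510759 and 147702631 of chromosome 4 were lower, with a median log2 fold change of −1.54, and the other 393 had a median of −0.02 with 111 lower. The interval runs from the start of Zfp990 to the end of Zfp534, both called lower, so the count inside it was partly set by that choice. Of all 49 tested genes in it, 32 were lower and 0 higher. Among the others, Zfp935 on chromosome 13, named after its values were seen, was listed at 0.87, 0.646 and 0 CPM in WT and at 0 in both KO libraries, so that the groups overlapped and no fold is given. Zfp981 (ENSMUSG00000056300) stood at 336, 362 and 343 CPM in WT and 63.6 and 66.8 CPM in KO, a change of −2.41 (SE 0.05, adjusted p 1e-11). Zfp600 (ENSMUSG00000066007) stood at 231, 254 and 235 CPM in WT and 49.1 and 55.3 CPM in KO, a change of −2.20 (SE 0.06, adjusted p 8.5e-11). Both KO libraries were below every WT library in both genes. Counts of all 15 genes were not whole numbers, so their reads were shared out among copies, and the fall of single copies is uncertain.

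Several classes of weakly expressed genes held more higher than lower members, and others did not. Of 74 genes of synapse and axon guidance, 36 were higher and 9 lower, with a median of 0.31 in a class whose median member lay in quintile 2 (35.3% higher). Ntn1, a guidance cue (ENSMUSG00000020902, chromosome 11), stood at 16, 13.6 and 15.0 CPM in WT and 36.4 and 37.9 CPM in KO, a log2 fold change of 1.33 (SE 0.07, adjusted p 1.2e-08). Robo2, a receptor of guidance cues (ENSMUSG00000052516, chromosome 16), stood at 0.942, 1.01 and 0.661 CPM in WT and 3.9 and 4.58 CPM in KO, a change of 2.27 (SE 0.20, adjusted p 1.5e-06). Both were higher in KO without overlap. Sodium and calcium channels were higher in 15 of 34, cilia genes in 26 of 58 and potassium channels in 27 of 79 (13 in DESeq2), a share of 34.2% for the last of these beside 27.3 and 35.3% in quintiles 1 and 2. Neural lineage genes (quintile 2) were higher in 6 and lower in 7 of 22, with a median of −0.08, and interferon-stimulated genes (quintile 2) were higher in 10 and lower in 8 of 31, with a median of −0.09. Receptors of smell and pheromones (quintile 1) had a median of −0.15: of 757 tested, 127 were lower (66 in DESeq2) and 5 higher, and their summed level was 5670 to 5960 CPM in WT and 5030 and 5130 CPM in KO. Of these genes, 681 had counts that were not whole.

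Genes of the extracellular matrix are given beside the fibroblast markers. Collagen genes such as Col1a1 and Col3a1 are members of the fibroblast list, so the collagen and fibroblast medians are not independent. Collagens were higher in 18 of 40 and lower in 4, with a median of 0.28 (0.09 without KO1), and against the WT mean their class median was 0.36 in KO1 and 0.09 in KO2. The median member lay in quintile 2 for collagens (35.3% higher), 3 for fibroblast markers (31.1% higher) and 4 for basement membrane genes (21.8% higher). Basement membrane genes were higher in 11 of 24 (6 without KO1) and lower in 5, with a median of 0.20 (0.04 without KO1): Lama1 (ENSMUSG00000032796, chromosome 17) stood at 56.3, 56.3 and 58.3 CPM in WT and 89.6 and 85.9 CPM in KO, a log2 fold change of 0.62 (SE 0.05, adjusted p 2.8e-07), and Col18a1 fell by 0.65. Fibroblast markers had a class median of 0.36 in KO1 and 0.10 in KO2, beside 0.08 in WT1 and WT2 and −0.13 in WT3, and 8 were higher without KO1 against 16 without KO2. Among targets of SRF, the factor of contractile genes, Tagln and Acta2 rose by 1.19 and 1.10 and are also fibroblast markers, while Actg1 and Actb, the actins of every cell, fell by 0.63 and 0.30. The part of fibroblast RNA in these classes was not tested.

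**Figure D5:**
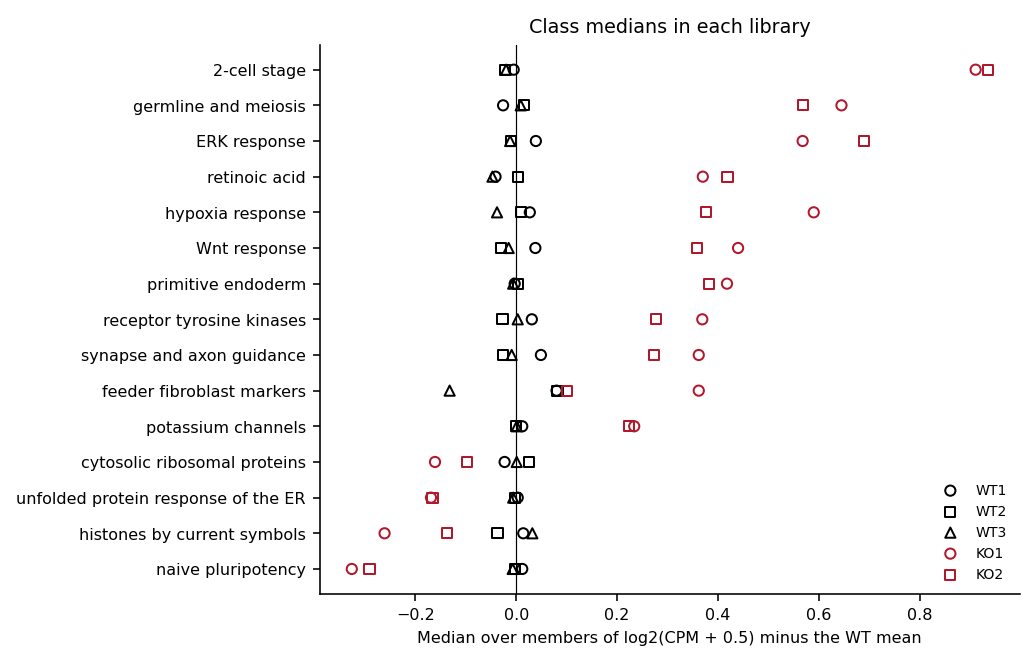
Median over the members of 15 classes of log2(CPM + 0.5) in each library minus the mean of the 3 WT libraries; black symbols are WT and red symbols KO libraries. The KO medians lay outside the range of the WT medians in each class shown, and KO1 and KO2 lay apart for fibroblast markers (0.36 and 0.10) and the hypoxia response (0.59 and 0.38). The 15 classes were chosen from 78 with results known. In some others a KO median lay within the WT range, as for KO2 in Nodal and TGF-beta (0.000, WT −0.031 to 0.028) and in LIF and STAT3 (−0.006, WT −0.023 to 0.031).

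The share of genes with H3K79me2 differed by call. In WT mESCs, 68.6% of the 3594 lower genes, 32.4% of the 4237 higher genes and 38.3% of the genes not called had a peak in both lists, at median levels of 45.1, 10.7 and 6.61 CPM. Of the genes that rose by at least 1, 4.08% had the mark, and of those that fell by at least 1, 26.6%. H3K79me3 was found at 20.7% of lower, 7.76% of higher and 7.86% of other genes. By class, H3K79me2 covered 95.8% of naive pluripotency, 91.3% of unfolded protein response, 81.0% of ERK response and 77.3% of hypoxia genes, against 6.25% of germline genes and no 2-cell gene, so higher classes occurred with and without it. The marks follow expression level, and the part of level in these shares was not tested.

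In the 8-cell embryos, 13769 autosomal genes were tested between inhibitor and solvent. Of these, 0 were called by edgeR (0.0% called), with 1118 at an unadjusted p under 0.05. DESeq2 called 123, and edgeR with the replicate block called 164. Class medians there, which have no test, were −0.34 for naive pluripotency (21 of 24 members below 0) and −0.22 for cytosolic ribosomal proteins (65 of 78), and 0.06, 0.19 and 0.16 for the hypoxia, ERK and germline classes, beside 0.01 over all genes. Of all 13769 genes, 6741 were below 0. The part of expression level in these embryo values was not tested. Some other classes had the opposite sign to mESCs: retinoic acid (−0.28 against 0.53), trophectoderm (−0.30 against 0.32), Notch (−0.25 against 0.15) and the unfolded protein response (0.16 against −0.18).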

How the data were processed

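RNA of v6.5 mESCs was depleted of ribosomal RNA and made into libraries with the KAPA RNA HyperPrep kit, per the labels. The deposited mESC table holds estimated counts (expected counts) per Ensembl gene. Per the submitters' processing notes, kallisto is named for all 5 libraries, STAR and HTSeq are also named for 4 of them, and the build is mm10. Versions, annotation and strand of counting are not given in the sources used here, so genes that overlap on opposite strands are uncertain. Between 59.2 and 60.0% of values were whole numbers (to within 1e-06), and 69 genes without a symbol held at most 0.0163% of counts. All columns were matched to a sample. Symbols were placed on chromosomes with the RefSeq annotation of GRCm38.p6, and 950 tested genes had no place.

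Expected counts were rounded and tested with edgeR 4.0.16 (filterByExpr, TMM scaling, quasi-likelihood F test) in R 4.3.3 over all 19532 genes passing the filter, with 3 WT against 2 KO libraries and no covariate. Benjamini-Hochberg adjustment ran over those genes, and the biological coefficient of variation was 0.0467. Replicates differed by more than sampling noise, with chi-square values of 2.43 to 5.59 for each degree of freedom. Of 2 table entries with the same symbol, classes count the one with more counts. Genes were named per class as up to 3 called members with the largest change in each direction, 1 CPM or more on average and groups without overlap, with Dot1l, the 15 largest autosomal changes in each direction at 5 CPM or more, and further members where a class is described. Members, classes and gene lists were chosen with earlier results of these data known, and the histone list was added after the data were seen.

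Embryo read counts per gene, deposited by the authors, were tested in the same way. Peaks were called per library with MACS2 after Bowtie2, per the submitters' processing notes. A gene was marked when a peak of each of 2 WT lists overlapped it by at least 1 bp. The deposited lists also give each peak a score, a fold enrichment (ratio) and significance as −log10 of p and q, all set by the authors and not used. Promoter sequences came from RefSeq. Analyses used Python 3.11.15, pandas 2.3.3, scipy 1.17.1 and matplotlib 3.10.9. Scripts were tested on simulated counts. The alternatives were DESeq2 1.42.0, its size factors, upper-quartile scaling, limma-voom (limma 3.58.1), no filter, a minimum of 10 counts in all libraries, autosomal genes alone, a test against 0.5 on the log2 scale, the replicate block and leaving out each library.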

Additional observations from a re-analysis of the deposited data

How the results depend on the processing

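The count of autosomal genes called KO against WT was 7831 under the main settings and 6155 to 8116 under the alternatives other than a threshold of 0.5 on the log2 scale, with which 1507 were called. The autosomal genes called higher in KO were then 986, and the autosomal genes called lower in KO were 521. DESeq2 called 6155, and fits without 1 library called 6285 to 7736. The fit on autosomal genes alone called 4065 higher and 3871 lower (51.2% higher). Of 421 named genes, 389 kept the call in every alternative other than that threshold, and 0 of their values changed direction. With the threshold of 0.5, 222 of the 421 lost the call. Most of these genes were named for a called, large change in the same libraries, so their stability was partly set by that choice. Replicate numbers did not pair the libraries: deviations of same-numbered libraries correlated at 0.0167 (WT1 and KO1) and −0.0219 (WT2 and KO2), and the replicate block called 7423 genes. With a peak in either WT list in place of both, 50.2% of autosomal genes carried H3K79me2 against 43.0%, and 27.5% carried H3K79me3 against 10.4%. In the embryos, whose numbers are not said to mark anything shared, the replicate block called 164 genes against 0 without it. The embryo median over all genes was 0.01 and ranged from −0.016 to 0.030 without 1 library. Fits without a KO library leave 1, which is assumed to vary like the WT libraries. Lower calls numbered 24 with upper-quartile scaling and 61 without KO2 for the 80 ribosomal proteins, and 5 and 14 for the 23 H3K9 genes. Counts below about 1 CPM, as for Duxf3, limit single members of the 2-cell and lineage lists.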

Other observations

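Changed genes also lay side by side. Among 16273 protein-coding autosomal genes tested, 1093 were called with a log2 fold change of 1 or more in size, and 12 runs of 3 or more neighbours with the same direction held 46 of them, 8 runs higher and 4 lower. The number of runs to expect without clustering was not worked out. The runs include the zinc finger genes of chromosome 4 (runs of 6 and 8) and a run of 4 Zscan4 copies, whose counts were not whole. On chromosome 2, Pramel7, Pramel6, Olfr153 and Olfr1128 fell by 2.80, 2.77, 2.71 and 2.46. Pramel7 stood at 14.8, 15.6 and 14.4 CPM in WT and 1.83 and 2.44 CPM in KO, and Pramel6 at 13.2, 13.3 and 13.2 CPM in WT and 1.55 and 2.31 CPM in KO. On the same chromosome, Sycp2, Ppp1r3d and Fam217b rose by 1.99, 2.03 and 1.14. On chromosome 7, Kcnj11 and Abcc8, the subunits of the potassium channel that senses ATP, rose with their neighbour Ush1c by 2.0, 1.87 and 1.27. On chromosome 8, Ankrd37 of the hypoxia list rose with Ufsp2 and 1700029J07Rik by 1.79, 1.25 and 1.5, and Fbxl8, Hsf4 and Nol3 rose by 1.47, 2.14 and 1.12. On chromosome 14, Dmtn, Fgf17 and Npm2 fell by 1.34, 1.29 and 1.04. Neighbours can overlap or share reads, and strand of counting is not given in the sources used here.

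Some of the largest autosomal changes were in genes not described above. Irf8, a factor of myeloid cells (ENSMUSG00000041515, chromosome 8), stood at 1.78, 1.75 and 1.39 CPM in WT and 11.6 and 8.55 CPM in KO, a log2 fold change of 2.61 (SE 0.16, adjusted p 6.5e-08), and Slc17a7, a transporter of glutamate into vesicles (ENSMUSG00000070570, chromosome 7), stood at 1.74, 1.66 and 2.16 CPM in WT and 12.7 and 9.59 CPM in KO, a change of 2.59 (SE 0.16, adjusted p 4.6e-08). Among the falls, Dusp27 (ENSMUSG00000026564, chromosome 1) stood at 59.8, 59.1 and 58.5 CPM in WT and 6.6 and 10.2 CPM in KO, a change of −2.81 (SE 0.11, adjusted p 1.2e-09), and Apobec2, a relative of cytidine deaminases (ENSMUSG00000040694, chromosome 17), at 5.72, 5.93 and 5.36 CPM in WT and 1.26 and 1.27 CPM in KO, a change of −2.16 (SE 0.16, adjusted p 2.4e-07). The groups did not overlap in these 4 genes.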
